A study of Mus musculus with 10 samples.

Results

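Laminins, nidogens and perlecan are the glycoproteins that build the basement membrane around a cell. The 10 genes described here are those whose symbol in the deposited table is *Lama1*, *Lama2*, *Lama4*, *Lama5*, *Lamb1*, *Lamb2*, *Lamc1*, *Nid1*, *Nid2* or *Hspg2*, and each matched 1 of the 25233 entries with a gene symbol. They were followed in 10 bulk RNA-seq libraries of liver cells from male C57BL/6J mice, 5 of hypertrophied hepatic stellate cells (hypHSC) and 5 of quiescent hepatic stellate cells (qHSC). The hypHSC mice had received a choline-deficient high-fat diet (CDAHFD), which causes steatohepatitis with fibrosis. Mice of hypHSC 1 and 2 were 19 weeks old and had 13 weeks of the diet, while those of hypHSC 3, 4 and 5 were 18 weeks old and had 12 weeks of it. The qHSC mice ate standard diet and were older, 36 weeks for qHSC 1, 2 and 5 and 34 weeks for qHSC 3 and 4. Cells were released by enzymes, floated on a density gradient and sorted on their own fluorescence, green for hypHSC and blue for qHSC. Diet, age, digestion conditions and sorting gate all changed together, so their effects cannot be told apart. The replicates are separate cell preparations chosen for RNA quality, and the labels do not tie each one to an animal, so p-values measure the spread between these preparations.

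A laminin is a trimer of an α, a β and a γ chain. Trimers assemble in the secretory pathway, are secreted, and polymerize on the cell surface, where integrins and α-dystroglycan hold them. Nidogens bind the laminin γ1 chain and link the laminin network to type IV collagen, and perlecan, a proteoglycan with heparan sulfate chains, ties both networks together and stores growth factors. In the normal liver, the space of Disse between hepatocytes and sinusoidal endothelium holds a loose matrix without a continuous basement membrane, and stellate cells in that space are a known source of laminin and type IV collagen. Bile ducts and larger vessels have full basement membranes.

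The cell type on the labels was checked first, because the 2 groups differed in more than the diet. All 10 stellate cell markers were lower in hypHSC, and their summed level ran from 24191 to 58490 normalized counts in hypHSC against 953030 to 1356560 in qHSC. None of them was at 0 throughout a group. Of 10 macrophage markers, 9 were higher in hypHSC, where their sum ran from 977193 to 1364980 normalized counts, against 4480 to 124176 in qHSC. The hypHSC libraries therefore held stellate cell markers at a low level beside macrophage markers at a high one, and are called hypHSC here as a label. All 5 cholangiocyte markers tested were higher in hypHSC, with sums of 162434 to 336718 against 30.8 to 387 normalized counts, mostly from *Spp1*, and *Cldn4* was at 0 in every qHSC library. Of 9 endothelial markers tested, 3 were higher and 3 lower, with sums of 5625 to 7425 against 1871 to 4236 normalized counts. Most of the hypHSC sum was *Fcgr2b*, at 4811 to 6085 normalized counts against 30.0 to 335 in qHSC, so the higher sum rests mainly on that gene. *Stab2* and *Oit3* were also higher, and *Clec4g*, *Tek* and *Gpr182* were lower. None of 8 hepatocyte markers passed the test, with sums of 14496 to 238651 against 28805 to 117088, and 3 of 5 mesothelial and portal fibroblast markers tested were higher, with sums of 352 to 2420 against 210 to 372. Over all genes tested, 17.8% were higher and 21.7% lower. *Krt19*, *Cldn4* and *Gpm6a* passed the filter on low values (10 normalized counts in 5 libraries) through hypHSC alone, and *Epcam* mainly so. The calls of these markers could thus hardly go the other way. In bulk samples, fewer cells of a type and less RNA per cell cannot be told apart. The part of these cell types in the results below was not tested.

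Libraries held 30534719 to 43283589 reads on genes with a symbol in hypHSC and 35640104 to 47317028 in qHSC. Mitochondrial reads made up 2.21% to 12.8% of hypHSC libraries, with the most in hypHSC 1, and 1.25% to 1.61% of qHSC libraries. A count of 3 reads, taken as the floor of detection, stood for 2.25 to 4.54 normalized counts. The floor covers counting error only.

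In hypHSC, the transcripts of the laminin β1, β2 and γ1 chains, of both nidogens, of perlecan and of the laminin α1 chain were lower than in qHSC. The fall was deepest for *Lama1*, whose mean went from 2917 to 24.5 normalized counts, and it lay between -4.24 and -2.50 on the log2 scale for the other 6. The α2 chain gene *Lama2* and the α5 chain gene *Lama5* did not pass the test, and the α4 chain gene *Lama4* was higher, at a low level. A gene was called differentially expressed (DEG) when limma, run on log2(normalized count + 1) over 14630 genes, gave a log2 fold change of 1 or more in either direction with a Benjamini-Hochberg adjusted p of at most 0.05. All 10 members had passed the filter on low values, and 8 were DEGs, against 39.5% of all genes tested. Of these, 7 were lower in hypHSC, against 21.7% of all genes, and 1 was higher, against 17.8%. The median log2 fold change of the 10 was -2.94, beside -0.20 over all genes tested. The groups did not overlap for 7 of the 10, against 39.5% of all genes, and all 7 were lower, against 22% of all genes. For each of the 7, the exact two-sided permutation test gave p = 0.00794, the smallest that 5 libraries against 5 allow. All 7 stayed DEGs in each of 10 fits that left out 1 library and in 13 further alternatives.

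**Figure D1:**
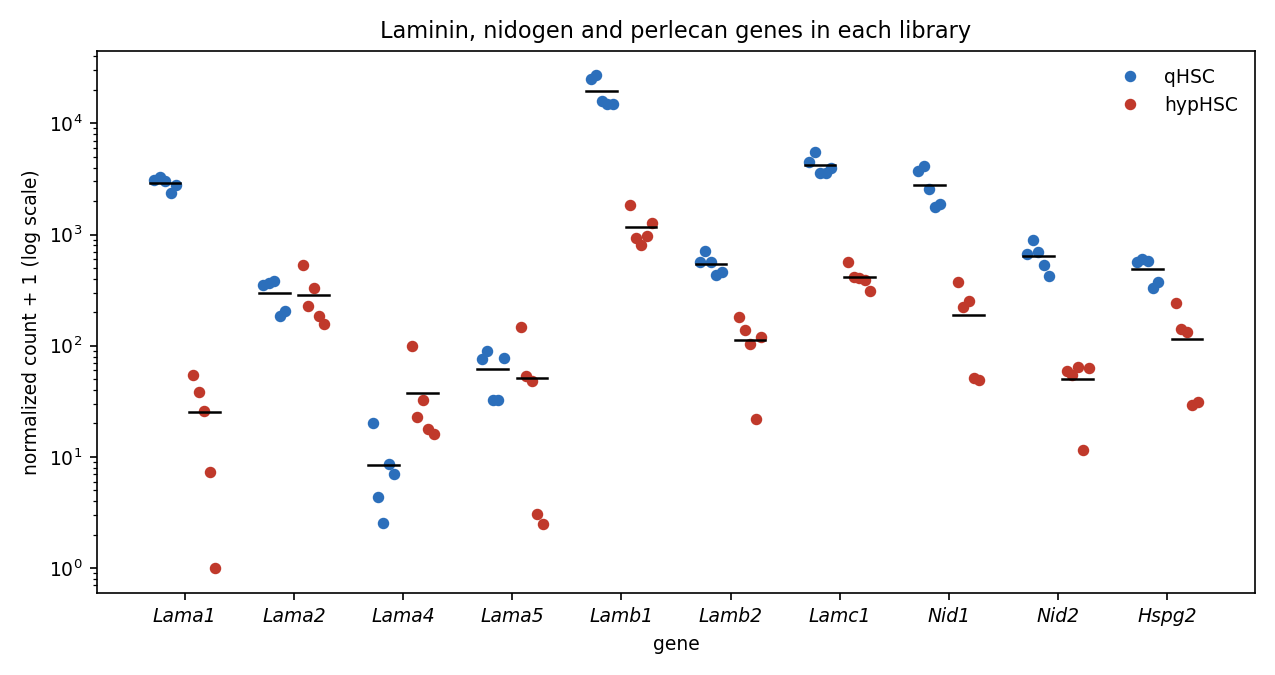
Normalized count + 1 on a log axis for each of the 10 genes, with 1 point per library in the order 1 to 5 and a line at the group mean. For 7 genes every hypHSC library lies below every qHSC library, while *Lama2*, *Lama4* and *Lama5* overlap between the groups.

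**Figure D2:**
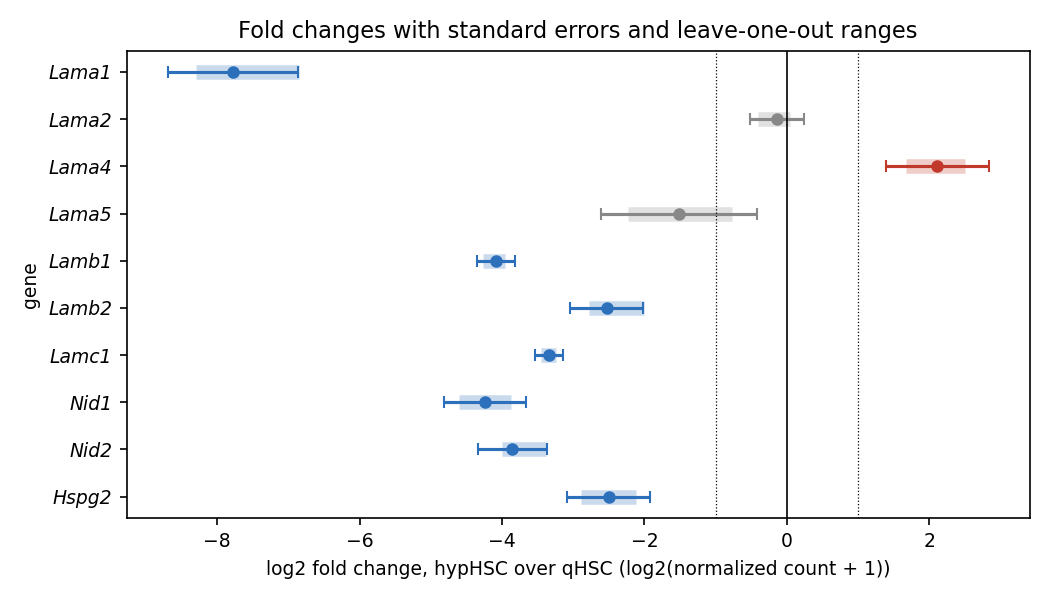
Log2 fold change of hypHSC over qHSC for each gene, with limma standard errors as error bars and the range over the 10 fits without 1 library as a shaded bar, blue for lower DEGs, red for the higher DEG and grey for genes not called. Dotted lines mark log2 fold changes of -1 and 1; the 7 lower DEGs lie between -7.78 and -2.50 and *Lama4* lies at 2.12.

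The promoters of 6 of the 10 genes were in the RefSeq promoter table used here (250 bases before to 50 after the start site, table build GRCm38.p6), and each was found once, letter for letter, on its chromosome in GRCm39, the build of the deposited coordinates. The promoters of *Lamb1*, *Nid1* and *Hspg2*, which were lower DEGs, are shown beside that of *Lama2*, which was not called. Those of *Lamb2*, also a lower DEG, and *Lama5*, also not called, are described below without their sequence. Capitals mark 3 motifs wherever they occurred on either strand, without overlap between motifs. The GC box was searched as GGGCGG. The CCAAT box was searched as the letters of its name. The TATA box was searched as TATAAA.
*Lamb1* (chr12:31315042-31315341, + strand): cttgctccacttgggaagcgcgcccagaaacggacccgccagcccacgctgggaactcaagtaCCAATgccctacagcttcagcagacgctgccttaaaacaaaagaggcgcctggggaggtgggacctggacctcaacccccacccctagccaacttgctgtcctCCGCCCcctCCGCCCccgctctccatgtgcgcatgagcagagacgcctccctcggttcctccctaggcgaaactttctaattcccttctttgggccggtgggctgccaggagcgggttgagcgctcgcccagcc
*Nid1* (chr13:13611937-13612236, + strand): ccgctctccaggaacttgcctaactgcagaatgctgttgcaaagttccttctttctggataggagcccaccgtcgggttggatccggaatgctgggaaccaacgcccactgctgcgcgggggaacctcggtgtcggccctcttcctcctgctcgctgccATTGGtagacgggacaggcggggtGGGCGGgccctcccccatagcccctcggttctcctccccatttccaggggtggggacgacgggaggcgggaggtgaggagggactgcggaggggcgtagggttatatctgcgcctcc
*Hspg2* (chr4:137195864-137196163, + strand): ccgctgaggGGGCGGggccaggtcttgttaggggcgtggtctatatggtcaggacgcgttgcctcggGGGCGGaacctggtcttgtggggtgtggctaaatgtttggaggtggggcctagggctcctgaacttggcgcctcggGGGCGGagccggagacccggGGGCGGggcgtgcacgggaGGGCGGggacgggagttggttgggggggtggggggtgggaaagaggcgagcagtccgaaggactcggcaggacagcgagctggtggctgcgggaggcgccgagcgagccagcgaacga
*Lama2* (chr10:27492889-27493188, - strand): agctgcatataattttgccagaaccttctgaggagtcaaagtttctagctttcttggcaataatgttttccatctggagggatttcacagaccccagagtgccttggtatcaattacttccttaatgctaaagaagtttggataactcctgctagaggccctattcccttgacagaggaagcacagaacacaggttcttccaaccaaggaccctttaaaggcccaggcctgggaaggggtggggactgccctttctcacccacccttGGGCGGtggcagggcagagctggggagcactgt

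*Hspg2* carried 5 GC boxes, *Lamb1* held 2, and *Nid1* and *Lama2* held 1 each. The promoter of *Lama5* held 4 GC boxes and that of *Lamb2* none. A GC box was in 35.7% of the 32851 promoters of the table. A CCAAT box was found once each in *Lamb1* and *Nid1*, and in 37.4% of all promoters. None of the 6 held TATAAA, which was in 13.6% of all promoters. The GC content was 63.7% for *Lamb1*, 64.7% for *Nid1*, 70.3% for *Hspg2*, 72.7% for *Lama5*, 50.3% for *Lama2* and 44.0% for *Lamb2*, beside a median of 52.7% over the table. The 3 shown promoters of lower DEGs were thus richer in G and C than this median, and that of *Lamb2*, also a lower DEG, was not. Of the genes not called, *Lama5* was above the median and *Lama2* below it. Such matches describe the letters in this window only. *Lama1*, *Lama4*, *Lamc1* and *Nid2* are named only.

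*Lama1* encodes the laminin α1 chain, best known from embryonic basement membranes. The gene lies on chromosome 17 (68004253 to 68129644, + strand, mm39) and shares no exon base with another annotated gene. Its level in qHSC 1 to 5 was 3106, 3309, 3030, 2339 and 2800 normalized counts. In hypHSC 1 to 5 it was 53.9, 37.3, 24.9, 6.29 and 0 normalized counts. Every qHSC library was thus far above every hypHSC library, and hypHSC 5 had no read. The log2 fold change was -7.78 (SE 0.91, limma adjusted p = 4.53e-05), and it lay between -8.30 and -6.85 when each library was left out in turn.

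*Lama2* encodes the α2 chain, the main α chain around muscle fibres and Schwann cells. The gene is on chromosome 10 (26857284 to 27493027, - strand), and 7.19% of its exon bases overlap another gene. Normalized counts in qHSC 1 to 5 were 351, 368, 379, 184 and 205. In hypHSC 1 to 5 they were 535, 226, 328, 186 and 156. The groups overlapped over most of their range, and hypHSC 1 was the highest of the 10 libraries. The log2 fold change was -0.14 (SE 0.38, limma adjusted p = 0.787). The direction was not stable, at 0.046 without hypHSC 5 and 0.26 without both hypHSC 4 and 5, and *Lama2* was a lower DEG, at -1.07, when libraries were scaled on *Hprt*, *Pgk1* and *Actb*.

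*Lama4* encodes the α4 chain of vascular and mesenchymal basement membranes. It lies on chromosome 10 (38841509 to 38986184, + strand). Its level in qHSC 1 to 5 was 19.0, 3.41, 1.57, 7.70 and 5.99 normalized counts. In hypHSC 1 to 5 it was 98.4, 21.7, 31.6, 16.8 and 15.1 normalized counts. The groups overlapped through qHSC 1, and *Lama4* was the lowest member in qHSC, passing the filter on low values mainly through hypHSC. The log2 fold change was 2.12 (SE 0.72, limma adjusted p = 0.0307). The call was lost in 5 of the 10 fits without 1 library (hypHSC 1 or 3, or qHSC 2, 3 or 5), with values of 1.67 to 2.13 there, and in 2 of 4 other scalings, with 1.80 and 1.27. Of its exon bases, 12.9% overlap genes on the other strand, among them *Fam229b*, which had 131 normalized counts in qHSC and 78.9 in hypHSC. Reads were counted without strand, so reads on such bases cannot be assigned.

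*Lama5* encodes the α5 chain, the widespread α chain of adult epithelia and vessels. It lies on chromosome 2 (179818167 to 179867652, - strand). Its level in qHSC 1 to 5 was 75.1, 88.6, 31.5, 31.7 and 76.4 normalized counts. In hypHSC 1 to 5 it was 146, 52.8, 47.4, 2.10 and 1.51 normalized counts. The hypHSC libraries fell apart here, since hypHSC 1 was above all qHSC libraries and hypHSC 4 and 5 were at the floor. The log2 fold change was -1.51 (SE 1.10, limma adjusted p = 0.276). It was 0.37 without hypHSC 4 and 5, and -2.96, a lower DEG, with only the 12-week libraries hypHSC 3 to 5.

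*Lamb1* encodes the β1 chain found in most laminins, and was the most abundant member per length. The gene is on chromosome 12 (31315291 to 31379643, + strand). The qHSC libraries 1 to 5 had 25070, 26965, 15879, 15050 and 14773 normalized counts. The hypHSC libraries 1 to 5 had 1845, 937, 802, 977 and 1266 normalized counts. The lowest qHSC library was far above the highest hypHSC library, and qHSC 1 and 2 stood above the other qHSC libraries. The fitted log2 fold change was -4.08 (SE 0.27, limma adjusted p = 6.35e-07). Of its exon bases, 7.62% overlap other genes, among them *Dld*, which had 3558 normalized counts in qHSC and 3117 in hypHSC.

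*Lamb2* encodes the β2 chain, known from the glomerulus and the neuromuscular junction. Its locus is on chromosome 9 (108357061 to 108367729, + strand) and shares no exon base. The qHSC libraries 1 to 5 had 567, 708, 563, 430 and 457 normalized counts. The hypHSC libraries 1 to 5 had 182, 139, 103, 20.98 and 118 normalized counts. The groups did not overlap, and hypHSC 4 was well below the other hypHSC libraries. Its log2 fold change was -2.53 (SE 0.51, limma adjusted p = 0.00174).

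*Lamc1* encodes the γ1 chain, the partner in most laminin trimers and the chain that nidogens bind. Its locus is on chromosome 1 (153094668 to 153208532, - strand) and shares no exon base. The qHSC libraries 1 to 5 had 4514, 5511, 3554, 3561 and 3973 normalized counts. Those of hypHSC 1 to 5 had 569, 414, 407, 389 and 312 normalized counts. *Lamc1* varied least among the hypHSC libraries relative to its mean, and the groups were far apart. This gave a log2 fold change of -3.34 (SE 0.20, limma adjusted p = 3.61e-07), the smallest standard error of the 10 genes.

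*Nid1* encodes nidogen 1 (entactin), the main linker of laminin to type IV collagen. The gene is on chromosome 13 (13612192 to 13686849, + strand). Normalized counts in qHSC 1 to 5 were 3753, 4091, 2541, 1758 and 1882. Those in hypHSC 1 to 5 were 373, 222, 251, 50.4 and 48.4. No library of one group reached the other, and hypHSC 4 and 5 were the lowest. Its log2 fold change was -4.24 (SE 0.58, limma adjusted p = 1.27e-04).

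*Nid2* encodes nidogen 2, a second linker with partly overlapping function. It maps to chromosome 14 (19801325 to 19861855, + strand), and 11.8% of its exon bases overlap *Rtraf*, on the other strand, which had 798 normalized counts in qHSC and 951 in hypHSC. Across qHSC 1 to 5 it had 663, 901, 700, 537 and 426 normalized counts. Across hypHSC 1 to 5 it had 57.9, 53.8, 63.2, 10.5 and 62.0 normalized counts. *Nid2* was close to equal in 4 hypHSC libraries, and only hypHSC 4 was lower. The fitted log2 fold change was -3.86 (SE 0.49, limma adjusted p = 7.35e-05).

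*Hspg2* encodes the perlecan core protein. Its locus is on chromosome 4 (137196112 to 137297940, + strand). Across qHSC 1 to 5 it had 569, 603, 573, 330 and 375 normalized counts. Across hypHSC 1 to 5 it had 243, 142, 131, 28.3 and 30.3 normalized counts. The groups did not overlap, and perlecan came closest to doing so among the 7 that fell, with 243 in hypHSC 1 against 330 in qHSC 4. Its log2 fold change was -2.50 (SE 0.58, limma adjusted p = 0.00446).

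The hypHSC libraries were not alike. For 7 of the 10 genes (*Lama1*, *Lama2*, *Lama4*, *Lama5*, *Lamc1*, *Nid1* and *Hspg2*), each of hypHSC 1, 2 and 3 was above both hypHSC 4 and 5, while *Lamb1*, *Lamb2* and *Nid2* did not follow this order. The share of all genes tested with this order was not counted. Outside the members, *Actb*, *Sparc* and *Col4a1* had it and *Hprt* and *Itgb1* did not. The order is therefore not read as a trait of the members. The mean of hypHSC 1 to 3 over that of hypHSC 4 and 5 was 45.4 for *Lama5*, 5.87 for *Hspg2* and 5.71 for *Nid1*, against 1.32 for *Lamc1* and 1.07 for *Lamb1*. This split was seen in the values and does not follow the diet time, which was 13 weeks for hypHSC 1 and 2 and 12 weeks for the others. No test was made of it. Hepatocyte markers summed to 37602, 36768 and 14496 normalized counts in hypHSC 1 to 3 and to 93910 and 238651 in hypHSC 4 and 5. Mesothelial and portal fibroblast markers summed to 2420, 1428 and 1039 in hypHSC 1 to 3 and to 726 and 352 in hypHSC 4 and 5. Both sums thus divided the hypHSC libraries in the same way, while the stellate cell, macrophage, endothelial and cholangiocyte marker sums did not. The stellate cell sum in hypHSC came mostly from *Dcn*, at 16456 to 39405 normalized counts, and the macrophage sum from *Lyz2*, at 740305 to 940344. The stellate cell markers *Des*, *Reln*, *Pdgfrb* and *Lhx2* were higher in each of hypHSC 1 to 3 than in hypHSC 4 and 5. So were the macrophage markers *Adgre1*, *Csf1r*, *C1qa* and *C1qb*. The other stellate cell and macrophage markers did not follow this order. The part of any cell type in this split was not tested. Without hypHSC 4 and 5 the same number of members, 7, were lower DEGs, with log2 fold changes of -6.26 for *Lama1*, -3.26 for *Nid1* and -1.52 for *Hspg2*.

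Levels of different genes were compared only per length, as FPKM, a read count scaled by the merged exon length of the gene and by the reads of the library on genes with a symbol. In qHSC, the order by mean FPKM was led by *Lamb1* at 55.8 ± 17.3 (SD, n = 5). *Nid1* at 11.5 ± 4.46, *Lamc1* at 11.4 ± 2.16 and *Lama1* at 9.19 ± 1.32 followed and did not differ beyond their spread. *Nid2* at 3.05 ± 0.90 and *Lamb2* at 2.74 ± 0.60 came next, again within their spread, then *Hspg2* at 0.945 ± 0.27, *Lama2* at 0.514 ± 0.179, *Lama5* at 0.160 ± 0.0686 and *Lama4* at 0.0146 ± 0.0135. Of these, *Hspg2* and *Lama2* overlapped in range, and the others were apart. In hypHSC, *Lamb1* led at 2.58 ± 0.91, ahead of *Lamc1* at 0.892 ± 0.243 and *Nid1* at 0.630 ± 0.477. *Lamb2* at 0.447 ± 0.240 and *Lama2* at 0.393 ± 0.226 were next and overlapped, followed by *Nid2* at 0.185 ± 0.0881, *Hspg2* at 0.179 ± 0.141 and *Lama5* at 0.109 ± 0.125. *Lama1* at 0.0630 ± 0.0560 and *Lama4* at 0.0572 ± 0.0549 were the lowest. Every hypHSC library had more *Lamb1* than any had of another member, while all further neighbours in this order overlapped.

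Among the α chains, the composition was turned over. In qHSC, *Lama1* made up 93.1% ± 1.13 (SD, n = 5) of the summed FPKM of *Lama1* to *Lama5*, and *Lama2* made up 5.07% ± 1.12. In hypHSC, *Lama1* made up 7.90% ± 6.00 and *Lama2* 67.8% ± 17.9. With the longest transcript as length in place of all exons, the mean shares were 89.4% for *Lama1* and 8.81% for *Lama2* in qHSC, and 5.11% for *Lama1*, 74.4% for *Lama2* and 7.41% for *Lama5* in hypHSC. The *Lama2* share ran from 49.6% to 88.9% over the hypHSC libraries and from 3.74% to 6.32% over the qHSC libraries, so the groups were apart by a wide gap. *Lama5* accounted for 11.5% ± 9.59 of the hypHSC sum, *Lama4* for 8.30% ± 1.91 and *Lama3* for 4.46% ± 4.67, and each was at most 2.18% in every qHSC library. The larger *Lama2* share in hypHSC came with a *Lama2* level that did not pass the test and with a fall of *Lama1*, and it is a share of a sum that was itself lower in hypHSC.

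**Figure D3:**
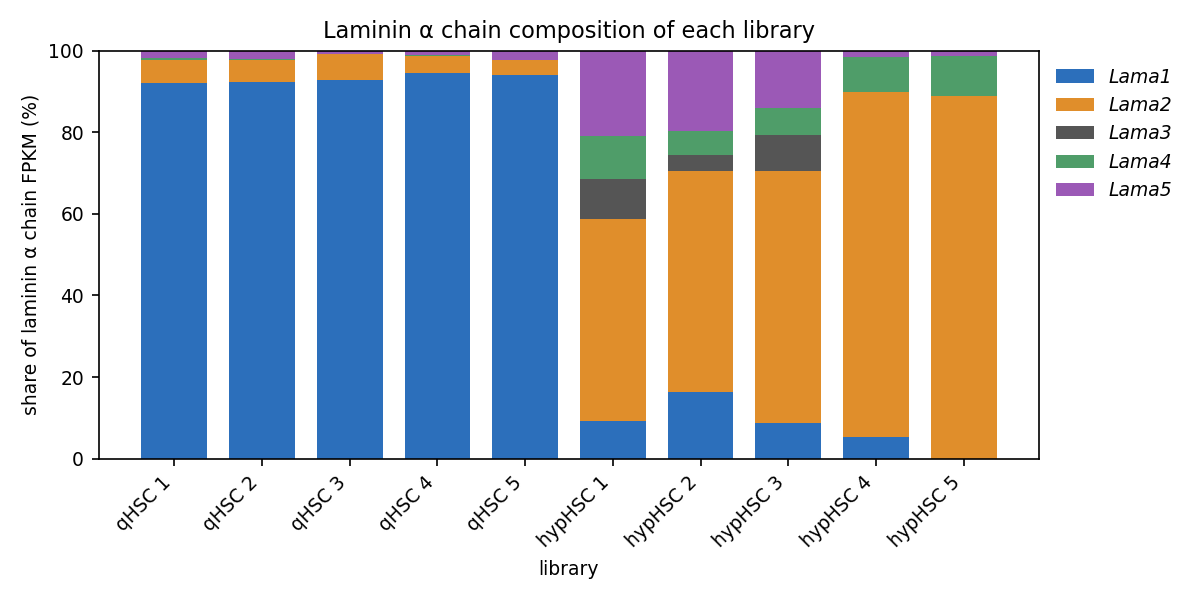
Share of each laminin α chain in the summed α chain FPKM of each library, in percent, as stacked bars for qHSC 1 to 5 and hypHSC 1 to 5. *Lama1* fills 92.0% to 94.7% of each qHSC bar, and *Lama2* is the largest share in each hypHSC bar.

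Within a library, ratios between partners do not depend on the scaling of the libraries. *Lamb2* against *Lamb1* had a log2 ratio of -5.46, -5.25, -4.82, -5.13 and -5.01 in qHSC 1 to 5. In hypHSC 1 to 5 it was -3.33, -2.75, -2.95, -5.48 and -3.41. The hypHSC libraries were above all qHSC libraries, except hypHSC 4, which was the lowest of the 10. The mean difference was 1.55 (SE 0.50), with p = 0.0476 in the exact two-sided permutation test and 0.0952 after adjustment over the 2 ratios tested, so it did not pass. Without hypHSC 4 the difference was 2.02, the largest among the fits that left out 1 library. No p-value is read from that fit, because it removes the only hypHSC library that was not above qHSC. *Nid2* against *Nid1* differed by 0.38 (SE 0.54, exact permutation p = 0.722), and by -0.13 without hypHSC 5.

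Per unit of *Lamc1* FPKM, the β chains stood at 5.07 ± 0.74 in qHSC and 3.62 ± 1.02 in hypHSC (SD, n = 5 each). The α chains stood at 0.877 ± 0.118 and 0.677 ± 0.355, and the nidogens at 1.25 ± 0.275 and 0.845 ± 0.418. *Hspg2* stood at 0.0830 ± 0.0201 in qHSC and 0.179 ± 0.112 in hypHSC. The group ranges of all 4 ratios overlapped, and none was tested.

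Genes with the most similar profile were sought for *Lamc1*, *Nid1* and *Hspg2* by the root mean square difference of log2 values centred on each gene's mean, over the 10 libraries. Nearest to *Lamc1* were *Gnb4* (0.226), *Tanc1* (0.231) and *Armcx1* (0.241). Nearest to *Nid1* were a merged protocadherin entry (0.262), *Robo2* (0.266) and *Chst15* (0.278). Nearest to *Hspg2* were *Col4a1* (0.201), which encodes the type IV collagen α1 chain, *Neo1* (0.313) and *Pdgfrb* (0.320), the latter one of the stellate cell markers used above. All these genes were lower in hypHSC, with log2 fold changes of -2.51 for *Col4a1*, -3.13 for *Gnb4* and -4.05 for *Robo2*. A 5 against 5 contrast dominates such distances.

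Laminin chain genes outside the 10, *Lama3*, *Lamb3* and *Lamc3*, were low in qHSC and showed a graded presence in hypHSC. *Lama3* and *Lamb3* encode chains of an epithelial laminin, and *Lamc3* encodes the γ3 chain. *Lamb3* had 132, 27.9, 70.7, 20.98 and 13.6 normalized counts in hypHSC 1 to 5 and 0, 8.52, 20.5, 1.71 and 0 in qHSC 1 to 5. The groups overlapped through qHSC 3, and *Lamb3* was a DEG at a log2 fold change of 3.46 (SE 0.997, limma adjusted p = 0.0141). *Lamb3* passed the filter on low values mainly through hypHSC. It was no DEG with edgeR, at 3.10, or with only the 12-week hypHSC libraries, at 3.01.

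*Lama3* and *Lamc3* did not pass the filter and were not tested. *Lamc3* had 186, 101, 78.2, 6.29 and 1.51 normalized counts in hypHSC 1 to 5, and no read in any qHSC library, so that its mean was at least 30.0-fold higher against the floor of 3 reads per library. *Lama3* had 76.8, 11.4, 33.3, 0 and 0 in hypHSC 1 to 5, and 3.62 in qHSC 1 with no read in the other qHSC libraries. Both were highest in hypHSC 1 and at 0 or below 7 normalized counts in hypHSC 4 and 5.

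Of the 6 cholangiocyte markers, *Krt19*, *Krt7*, *Epcam*, *Sox9* and *Cldn4* also had their highest value in hypHSC 1, and *Spp1* did not. *Krt19* ran at 710, 137, 202, 67.1 and 33.3 normalized counts in hypHSC 1 to 5, and *Cldn4* at 4122, 1244, 1091, 335 and 33.3. *Krt7* ran at 257, 93.2, 59.0, 8.39 and 39.3. These 3 were lowest in hypHSC 4 and 5, as *Lama3* and *Lamc3* were. This did not hold for *Epcam*, at 500, 41.4, 28.3, 39.9 and 186, or for *Sox9*, at 1244, 245, 146, 361 and 505. *Spp1*, which makes up most of the marker sum, was highest in hypHSC 5, at 335921. Of the 8 mesothelial and portal fibroblast markers, *Gpm6a* ran at 330, 165, 131, 31.5 and 10.6 normalized counts in hypHSC 1 to 5. *Mfap4* ran at 919, 508, 306, 194 and 12.1, and *Cd34* at 778, 550, 501, 280 and 92.3. *Gpm6a*, *Mfap4* and *Cd34* were also highest in hypHSC 1 and lowest in hypHSC 4 and 5, while the other 5 markers did not follow this order. The part of biliary, mesothelial or portal cells in these chains was not tested.

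**Figure D4:**
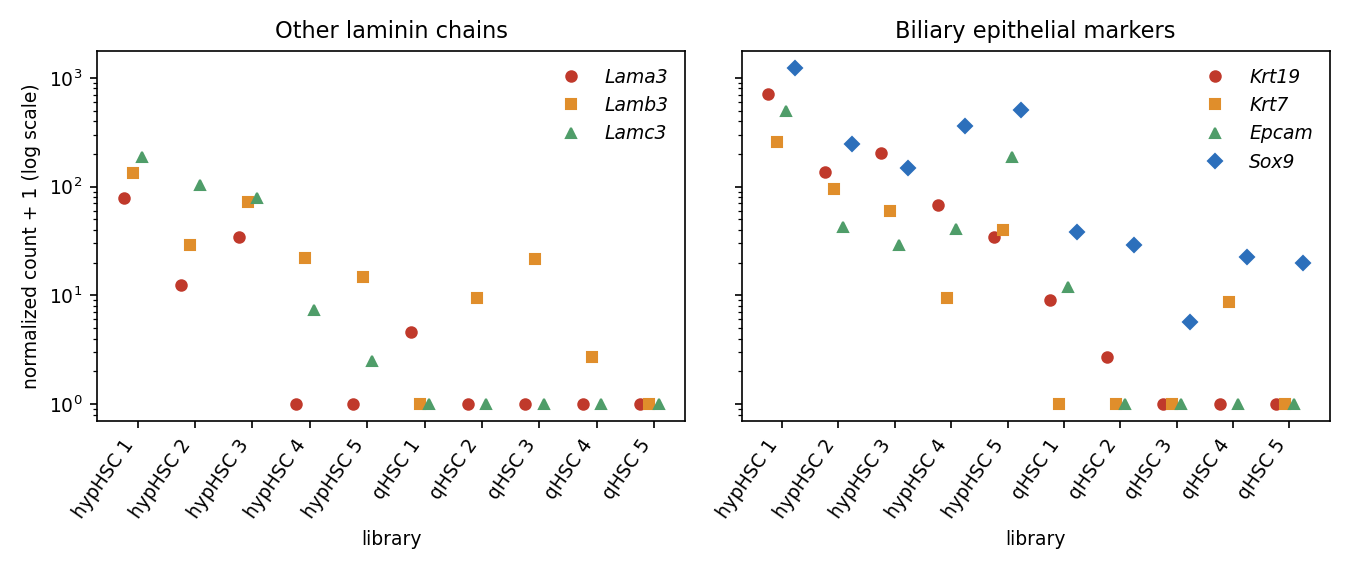
Normalized count + 1 on a log axis in each library for the laminin chain genes *Lama3*, *Lamb3* and *Lamc3* (left) and for the cholangiocyte markers *Krt19*, *Krt7*, *Epcam* and *Sox9* (right). All 7 genes are highest in hypHSC 1, and *Lama3* and *Lamc3* are near 0 in hypHSC 4 and 5 and in qHSC. The cholangiocyte markers *Spp1*, highest in hypHSC 5, and *Cldn4*, highest in hypHSC 1, are not plotted.

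The other genes of the pathway were read from 5 lists, other laminin chains, other basement membrane genes, laminin receptors, the dystroglycan complex with its glycosylation enzymes, and the enzymes of heparan sulfate. Of 68 genes, 58 were tested, and 10 were higher DEGs, 18 lower DEGs and 30 not called, beside 17.8% higher and 21.7% lower over all genes. Their median log2 fold change was -0.74. Of the higher DEGs, *Lamb3*, *Col4a5*, *Col15a1*, *Fbln2*, *Itga6* and *Xylt1* passed the filter on low values only or mainly through hypHSC. *Papln*, a lower DEG, did so mainly through qHSC. The share of higher DEGs was thus near that of all genes, and the share of lower DEGs was above it. No set test was made.

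Among other basement membrane genes, 9 of 20 tested were lower and 3 were higher, with a median log2 fold change of -1.53. Over all genes tested, 21.7% were lower and 17.8% higher. *Papln*, which encodes papilin, had a mean of 330 normalized counts in qHSC and 3.99 in hypHSC (log2 fold change -6.53, SE 0.65, limma adjusted p = 1.31e-05). *Hmcn1*, which encodes the extracellular protein hemicentin 1, went from 1480 to 38.6 (-5.51, SE 0.48, limma adjusted p = 5.28e-06). The other lower DEGs were *Pxdn*, *Ntn1*, *Tinagl1*, *Smoc2*, *Col4a1*, *Sparc* and *Col4a2*, between -4.63 and -1.66. *Col4a1* and *Col4a2* encode the chains of the commonest type IV collagen, and stood at 2307 and 2122 normalized counts in qHSC and at 503 and 838 in hypHSC. The groups overlapped for *Col4a2*, which was no DEG without hypHSC 4 and 5, at -0.94. The median of the list was -0.89 in that fit. *Col4a5*, which encodes a type IV collagen chain of restricted basement membranes, was at 3 reads or fewer in every qHSC library and at 84.7 to 348 normalized counts in hypHSC, a mean at least 70.3-fold higher against that floor. *Col15a1*, a basement membrane zone collagen, went from a mean of 4.71 to 159 (5.83, SE 0.95, limma adjusted p = 4.34e-04). The third higher DEG was *Fbln2*, at 3.93. *Col4a5* passed the filter on low values through hypHSC alone, and *Col15a1* and *Fbln2* mainly so.

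Of 11 laminin receptor genes tested, 3 were higher and 2 lower, beside 17.8% higher and 21.7% lower over all genes tested. *Itga6*, the α6 subunit of laminin-binding integrins, went from 2.29 normalized counts in qHSC to 365 in hypHSC (log2 fold change 7.16, SE 0.65, limma adjusted p = 7.12e-06), and passed the filter through hypHSC alone. *Sdc1*, a syndecan, went from 54.2 to 1009 (4.33, SE 0.44, limma adjusted p = 1.63e-05), whereas *Sdc2*, another syndecan, went from 5840 to 910 (-2.84, SE 0.32, limma adjusted p = 3.03e-05). *Dag1*, which encodes both dystroglycan subunits, was a lower DEG at -1.26, and at -0.91 and no DEG without hypHSC 4 and 5. *Rpsa* was higher at 1.03, and has many near-identical copies in the genome, so its count is uncertain. Its call was lost without hypHSC 1, at 0.87, without qHSC 5, at 0.93, with only the 12-week hypHSC libraries, at 0.80, and in 2 of 4 other scalings, at 0.68 and 0.092. *Itgb1*, which pairs with the α subunits, had a log2 fold change of -0.95 and was not called, but was a lower DEG without hypHSC 5, at -1.15, without hypHSC 4 and 5, at -1.21, and in 2 of 4 other scalings, at -1.31 and -1.89.

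None of 11 genes tested of the dystroglycan complex was higher, against 17.8% of all genes, and 5 were lower, against 21.7%. *Dmd*, which encodes dystrophin, went from 2497 to 89.0 normalized counts (log2 fold change -5.85, SE 1.17, limma adjusted p = 0.00172), with no read in at least 1 hypHSC library. *Sgce*, the ε-sarcoglycan gene, went from 6321 to 564 (-3.59, SE 0.27, limma adjusted p = 1.69e-06). *Sgcb* and *Utrn* were lower at -2.06 and -1.70. *Sgcb* encodes β-sarcoglycan and *Utrn* the dystrophin relative utrophin. The median of the list was -1.87, and -1.12 without hypHSC 4 and 5.

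Of 15 heparan sulfate genes tested, 3 were higher, 2 were lower and 10 were not called, beside 17.8% higher and 21.7% lower over all genes. The median log2 fold change of this list was -0.02, and 0.53 without hypHSC 4 and 5. *Xylt1*, which starts the glycosaminoglycan chain on the core protein, was at 3 reads or fewer in every qHSC library and at 49.9 to 114 normalized counts in hypHSC, a mean at least 34.0-fold higher against that floor. *Sulf2*, a sulfatase that removes sulfate groups from heparan sulfate, went from 24.9 to 1087 (5.72, SE 0.59, limma adjusted p = 1.68e-05). *Hpse*, heparanase, which cuts the chains, went from 964 to 116 (-3.08, SE 0.23, limma adjusted p = 1.84e-06). *Ext2*, a subunit of the chain polymerase, was lower at -1.43, and *Hs6st1*, a sulfotransferase, higher at 1.15. The call of *Hs6st1* was lost in 2 of 4 other scalings, at 0.80 and 0.21. Perlecan core protein and these enzymes thus had values of both signs.

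**Figure D5:**
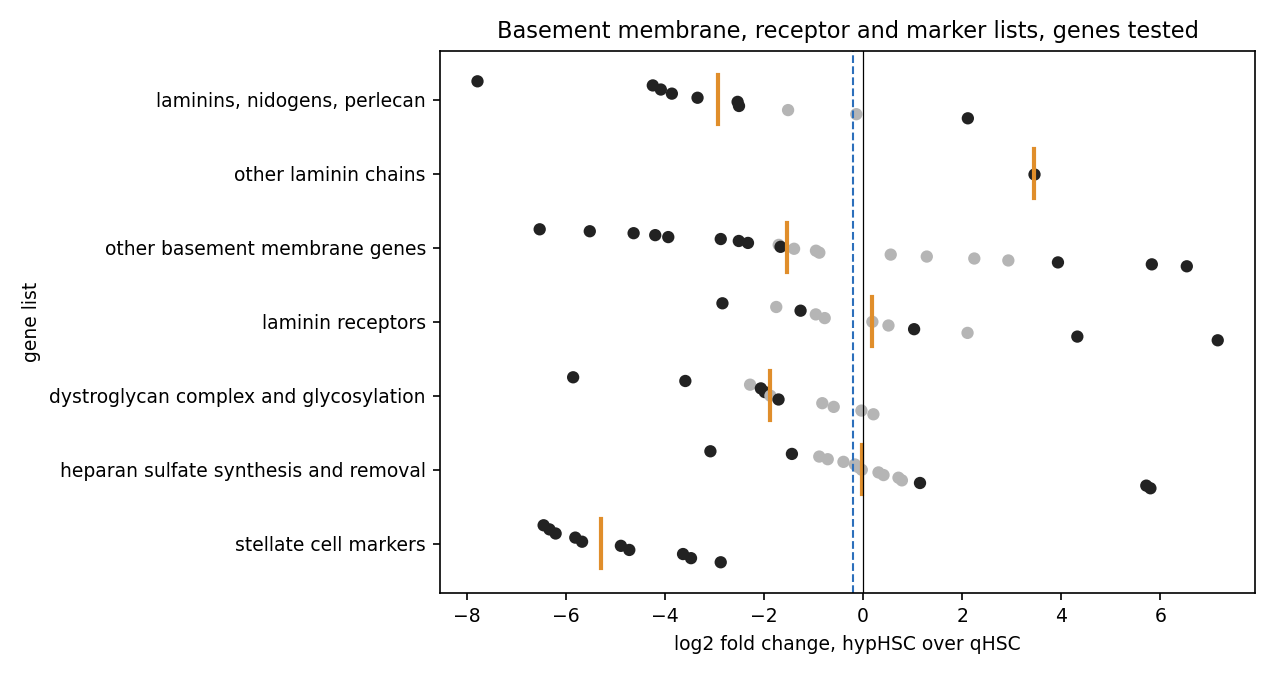
Log2 fold change of hypHSC over qHSC for every gene tested of each list, black for DEGs and grey for genes not called, with the list median in orange and the median of all genes tested as a dashed line at -0.20. The 10 laminin, nidogen and perlecan genes have a median of -2.94 and the 10 stellate cell markers one of -5.28.

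Set beside the stellate cell markers, whose median log2 fold change was -5.28 with a range of -6.45 to -2.87, the members that fell were mostly less lowered. *Lama1*, at -7.78, was below that whole range, and *Hspg2*, *Lamb2*, *Lama2*, *Lama4* and *Lama5* were above it. Without hypHSC 4 and 5 the markers ran from -6.60 to -1.81, and *Lama1*, at -6.26, and *Lamb2*, at -1.96, lay within that range. These are descriptions of fold changes in the same libraries, and no test of the difference was made.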

How the data were processed

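RNA of sorted cells was made into libraries without strand information and sequenced on both ends. The authors mapped reads to mm39 with STAR, counted them per gene with featureCounts (Subread 1.5.0) on the FAST DB annotation, and divided the counts by DESeq2 size factors. These deposited normalized counts are a signal per gene, in a table of 62322 entries. Multiplied by the size factor, all values gave whole reads (tolerance 0.05), which served for depth, FPKM, DESeq2 and edgeR.

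Entries with a symbol that reached 10 normalized counts in 5 or more of the 10 libraries entered limma 3.58.1 (R 4.3.3, eBayes with trend) on log2(normalized count + 1), with Benjamini-Hochberg adjustment. The fit was checked on simulated data. Lengths and overlaps came from GENCODE exons in GRCm39. Alternatives changed the pseudocount, filter, scaling, tool (DESeq2 1.42.0, edgeR 4.0.16), replicate block, diet time or a library. The members and lists were chosen with earlier results of these data known. All 10 members were named, and per other list up to 4 DEGs of largest fold change, plus those needed to account for it; some withheld items are not reported here. Entries without a symbol were left out, 8.98% to 29.1% of the reads of a library.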

Additional observations from a re-analysis of the deposited data

Results flagged for a closer look

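The values of 4 libraries and measures stood apart from the other libraries of their group by Dixon's criterion, a gap over range above 0.71 for 5 libraries taken on log2(normalized count + 1) for genes and on the log2 scale for ratios, among 24 groups of values examined, of which chance marks about 1 in 20. *Lamb2* in hypHSC 4, at 20.98 normalized counts, was the lowest of its group, with a gap of 0.734 of the range on that log2 scale. *Nid2* in hypHSC 4, at 10.5 normalized counts, was the lowest, with a gap of 0.908 of the range on the same log2 scale. The log2 ratio of *Lamb2* to *Lamb1* was lowest in hypHSC 4, at -5.48, with a gap of 0.756 of the range. The log2 ratio of *Nid2* to *Nid1* was highest in hypHSC 5, at 0.35, with a gap of 0.77 of the range. With hypHSC 4 left out, *Lamb2* and *Nid2* stayed lower DEGs.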

How the results depend on the processing

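The 7 lower DEGs among the members stayed lower DEGs under every alternative run. The count of lower members was 7, except 9 when scaled on *Hprt*, *Pgk1* and *Actb* and 8 with only the 12-week hypHSC libraries. The count of higher members, 1, was 0 when genes under a mean of 100 normalized counts were dropped, when libraries were scaled to the same total, when scaled on *Hprt*, *Pgk1* and *Actb*, and with the 12-week libraries only, and 0 to 1 with each library left out. *Lama2* changed sign, to 0.046 without hypHSC 5 (from -0.40 to 0.046 over the libraries left out) and 0.26 without hypHSC 4 and 5, and *Lama5* to 0.37 in the latter fit, an alternative added after the data had been seen. Of the other genes, 18 were lower DEGs but 30 when scaled on *Hprt*, *Pgk1* and *Actb*, and 10 were higher DEGs but 5 after dropping genes under a mean of 100 and 16 without hypHSC 4 and 5. With the longest transcript as length, the *Lama1* share of qHSC was 89.4% and the *Lama2* share 8.81%. With each library left out, the difference in the *Lamb2* to *Lamb1* ratio ran from 1.34 to 2.02 and in the *Nid2* to *Nid1* ratio from -0.13 to 0.63. The cause of these changes was not tested.

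Scaling moved the median log2 fold change of all genes by -0.35 (same total), 0.11 (upper quartile) and -0.93 (*Hprt*, *Pgk1* and *Actb*). The 2602 higher and 3177 lower DEGs then shifted to 4224 lower of 6246 for the same total and to 6989 lower of 8461 for the reference genes, of which *Hprt* and *Pgk1* were themselves higher DEGs. *Actb* was not called but varied widely within hypHSC, from 18213 normalized counts in hypHSC 5 to 296496 in hypHSC 2. The replicate numbers are names only, since same-numbered libraries deviated together with correlations of 0.00815 to 0.129, and only number 5 matched itself best. With the replicate block there were 5786 DEGs in place of 5779, and 7 lower and 1 higher member as before. Depth limits *Lama4* and, in hypHSC 4 and 5, *Lama1* and *Lama5*, which lay at few reads.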

Other observations

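The minor type IV collagen chain genes are known from restricted basement membranes. *Col4a5* had 348, 203, 154, 86.0 and 84.7 normalized counts in hypHSC 1 to 5 and at most 2.56 in qHSC. *Col4a6*, which was not tested because it did not pass the filter, had 148, 130, 23.3, 0 and 18.1 in hypHSC 1 to 5 and at most 3.41 in qHSC. *Col4a4*, which was not called, had 156, 93.2, 58.2, 9.44 and 12.1 in hypHSC 1 to 5 and 3.75 to 32.4 in qHSC. *Col4a3*, which was not called either, had 105, 63.2, 63.2, 163 and 0 in hypHSC 1 to 5 and 0.86 to 11.2 in qHSC. Without hypHSC 4 and 5, *Col4a4* and *Col4a3* were higher DEGs, at 3.46 and 3.96.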
